A study of Mus musculus with 8 samples.

Results

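Bcl6, Maf, Pou2af1, Prdm1 and Ascl2 encode regulators of T follicular helper (Tfh) cells, and their transcripts were measured by RNA-seq in CD4+ T cells of 2 clones, SAS and ANT. The 5 genes were picked by symbol from the 39056 genes of the deposited count table. All 5 had a row, and 4 of them passed the filter on low counts and stood among the 12619 genes tested. Bcl6, Maf and Pou2af1 were higher in SAS, Prdm1 was lower in SAS, and Ascl2 was close to 0 in both clones.

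Tfh cells are the CD4+ T cells that enter B cell follicles and help B cells form germinal centres. BCL6, a zinc-finger repressor, directs this fate, and Blimp1, the product of Prdm1, opposes it. Each represses the gene of the other, so that T cells tend to hold one or the other. MAF is a bZIP factor that drives the genes of Tfh cytokines and costimulatory receptors, POU2AF1 (also called OCA-B or BOB1) is a co-activator that octamer factors recruit, and ASCL2 is a basic helix-loop-helix factor that can induce the follicle homing receptor Cxcr5.

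SAS and ANT cells came from C57BL/6J mice that had been given bone marrow transduced with a retrovirus for the SAS TCRα or the ANT TCRα chain, and the labelled genotype of both was CD4-Cre TCRβtg Tcra-/-. Both clones therefore carried the same TCR beta transgene, the same Cre transgene and no endogenous TCR alpha gene, and they differed in the alpha chain supplied. Cells were sorted from a pool of spleen and lymph nodes. The age of the mice, the gates of the sort and whether each sample came from its own animal are not given in the sources used here, so the p-values reflect only the scatter among these libraries, which may be technical. The series title names a Tfh-like state of self-reactive clones at steady state. The question here is how far the regulators of that state differ between the clones.

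There were 4 SAS libraries (replicates 1, 2, 3 and 6) and 4 ANT libraries (replicates 1, 3, 4 and 5), with 27600959 to 31810799 counts each. Levels are given in CPM, counts per 1e+06 of the scaled library size, with SD over n = 4 libraries, and log2 fold changes are SAS minus ANT. Cd4, a marker of the labelled cell type, was at 907 ± 66.6 CPM across SAS libraries and 936 ± 59.8 CPM across ANT libraries. All 15 genes of a T cell list passed the filter on low counts. Most of them are shared by CD4 and CD8 T cells, so they do not measure how pure the sort was. A list of CD8 and NK cell genes is given below. The B cell genes Ms4a1, Pax5 and Ebf1 held 11 to 12 counts in all SAS libraries together and 12 to 25 in all ANT libraries together. They are among the lower genes of a B cell list, and others held more, such as Cd79a with 109 counts in SAS and 91 in ANT. Sums over the full B cell list are given below. On the second principal component, which held 10.6% of the variance, the SAS libraries were spread between 23.6 for replicate 1 and −25.0 for replicate 2, and ANT replicates 1 and 3 (25.0 and 26.6) lay apart from ANT replicates 4 and 5 (−25.1 and −31.3). The members kept their calls without either pair of ANT libraries and without each SAS library. In bulk samples a lower share of cells with a transcript and less transcript per cell cannot be told apart.

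All 4 tested members passed the test at an adjusted p under 0.05 in edgeR's quasi-likelihood fit, 3 with SAS higher and 1 with ANT higher. Of all 12619 genes tested, 37.4% passed, 19.8% as higher in SAS and 17.7% as higher in ANT. The 2 clones did not overlap in any of the 4 members, as was also the case for 38.1% of all genes tested. Passing the test was thus common among genes in general. With scaling by library totals only, 64.8% of the calls were higher in SAS, against 52.8% with the TMM scaling used here, and each of the 4 members kept its direction.

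**Figure D1:**
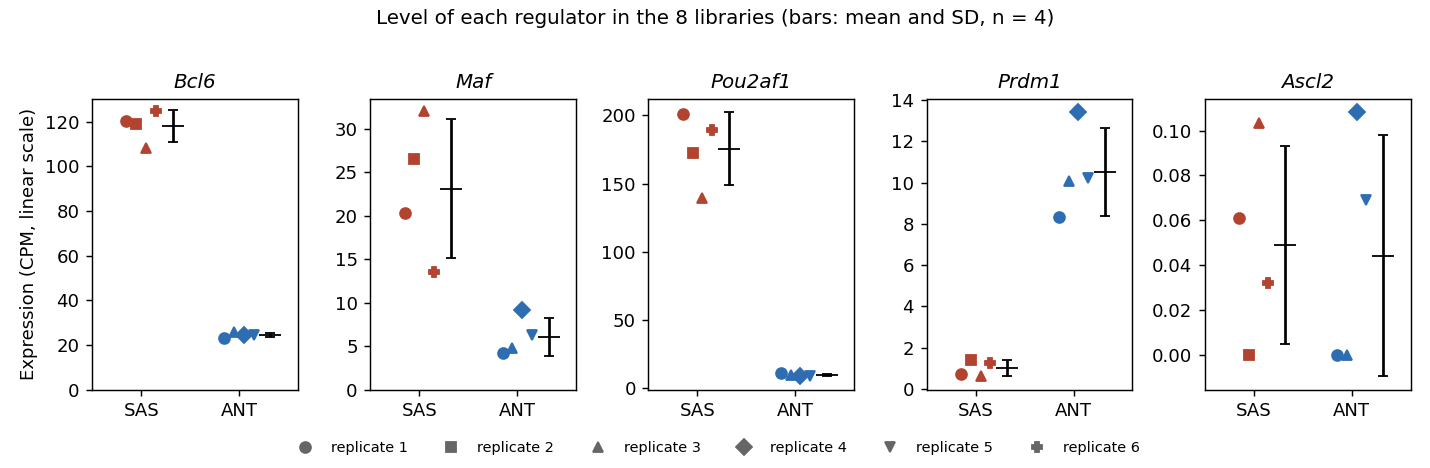
Level of each gene in CPM (linear vertical axes, one per gene) in the 4 SAS and the 4 ANT libraries, with symbols for the replicate number and black bars for the mean and SD. Bcl6, Maf and Pou2af1 lie higher in every SAS library, Prdm1 lies higher in every ANT library, and Ascl2 overlaps near 0.

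Bcl6 (ENSMUSG00000022508.5, chromosome 16, 23965052 to 23988852, minus strand, mm10) encodes the repressor that commits CD4+ T cells to the Tfh fate. It was at 120.4, 119, 108 and 125 CPM in SAS replicates 1, 2, 3 and 6, against 23.1, 25.8, 24.7 and 24.4 CPM in ANT replicates 1, 3, 4 and 5. The libraries of each clone lay close together, with a coefficient of variation of 5.93% in SAS and 4.40% in ANT, where counting error alone would give 1.67% and 3.80%. Bcl6 averaged 118 ± 7.01 CPM across SAS libraries and 24.5 ± 1.08 CPM across ANT libraries, a 4.83-fold excess in SAS (log2 fold change 2.27, SE 0.09, edgeR adjusted p 7.74e-08). By p-value it stood in place 35 of the 12619 genes, although 636 genes had a larger log2 fold change in the same direction. Bcl6b, its closest relative, held 9 counts over all SAS libraries and 2 over all ANT libraries, too few to be tested. The gene model of Gm37419, on the opposite strand, shares 21 exonic bases with Bcl6 and held 4 counts in SAS and 0 in ANT.

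RefSeq (GRCm38.p6) gives 2 start sites for Bcl6, 7569 bases apart, and gene counts do not tell which of them was used. The promoters are shown because BCL6 and STAT factors bind similar palindromes and because Bcl6, Pou2af1 and Prdm1 moved between the clones. Each runs from 250 bases before the start site to 50 bases after it. Capitals mark matches to the STAT palindrome TTCNNNGAA, which includes the BCL6 motif TTCCTNGAA, or to the recognition element TGCTGA of MAF.
Bcl6, upstream start, chr16:23988803-23989102, minus strand: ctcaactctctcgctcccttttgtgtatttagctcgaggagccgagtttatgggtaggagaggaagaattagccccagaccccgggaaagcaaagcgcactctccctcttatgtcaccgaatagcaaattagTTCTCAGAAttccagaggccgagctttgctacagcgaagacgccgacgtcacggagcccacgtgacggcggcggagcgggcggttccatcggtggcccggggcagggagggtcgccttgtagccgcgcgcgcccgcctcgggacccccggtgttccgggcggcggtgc
Bcl6, downstream start, chr16:23981234-23981533, minus strand: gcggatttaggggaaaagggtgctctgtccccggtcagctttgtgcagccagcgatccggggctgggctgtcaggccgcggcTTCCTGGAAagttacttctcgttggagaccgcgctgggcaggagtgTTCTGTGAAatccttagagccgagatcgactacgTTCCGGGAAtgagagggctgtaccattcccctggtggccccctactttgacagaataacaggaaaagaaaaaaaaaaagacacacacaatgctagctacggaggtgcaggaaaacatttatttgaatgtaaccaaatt
Pou2af1, chr9:51213440-51213739, plus strand: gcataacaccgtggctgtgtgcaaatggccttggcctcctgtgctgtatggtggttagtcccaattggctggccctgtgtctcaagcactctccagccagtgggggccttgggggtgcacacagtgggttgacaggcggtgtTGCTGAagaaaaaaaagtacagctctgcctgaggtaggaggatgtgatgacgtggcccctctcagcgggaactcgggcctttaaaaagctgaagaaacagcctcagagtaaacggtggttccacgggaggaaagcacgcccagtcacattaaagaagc
Prdm1, chr10:44458699-44458998, minus strand: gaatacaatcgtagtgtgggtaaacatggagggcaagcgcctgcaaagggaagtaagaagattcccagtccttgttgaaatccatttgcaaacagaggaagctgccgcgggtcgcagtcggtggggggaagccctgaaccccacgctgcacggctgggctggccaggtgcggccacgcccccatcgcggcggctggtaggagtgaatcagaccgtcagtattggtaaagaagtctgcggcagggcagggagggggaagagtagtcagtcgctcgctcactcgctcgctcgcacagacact

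The downstream Bcl6 promoter held 3 matches to TTCNNNGAA, at −168, −122 and −88 from the start site, and the one at −168 also matched the BCL6 motif. The upstream one held 1 match to TTCNNNGAA, at −118. Searched on both strands, TTCNNNGAA was found in 8.30% and TTCCTNGAA in 1.59% of the 32851 promoters of the same length in the table. Pou2af1 had 1 match to TGCTGA, at −108, a motif found in 19.5% of promoters. The 300 bases of Prdm1 held no match to either palindrome, to TGCTGA, to the Blimp1 motif AGNGAAAG (8.63% of promoters), to the octamer ATGCAAAT (1.74%), to the E box CAGCTG (16.3%) or to the TCF1 motif ATCAAAG (3.73%). The start site used for Prdm1 lies inside its gene model, whose upstream end on the minus strand is at 44528501. Sequence before that end was not searched. The matches describe the letters only. Binding was not measured here.

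Prdm1 (ENSMUSG00000038151.13, chromosome 10, 44437177 to 44528501, minus strand), the gene of Blimp1, showed the opposite pattern to Bcl6. SAS replicates 1, 2, 3 and 6 held 23, 40, 18 and 39 counts of it, or 0.700, 1.40, 0.621 and 1.25 CPM, against 241, 274, 372 and 297 counts, or 8.31, 10.1, 13.4 and 10.2 CPM, in ANT replicates 1, 3, 4 and 5. Every ANT library lay above every SAS library, and the highest SAS value was well below the lowest ANT value. The means were 0.994 ± 0.391 CPM across SAS libraries and 10.5 ± 2.12 CPM across ANT libraries, 10.5-fold higher in ANT (log2 fold change −3.40, SE 0.29, edgeR adjusted p 9.95e-06). Of all genes tested, 32 had a larger fall in SAS. The coefficient of variation was 39.3% in SAS, where counting error alone would give 18.3%, and 20.2% in ANT, where it would give 5.81%. No annotated gene overlaps Prdm1.

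Of 13 other Prdm genes in the table, 7 were tested and 3 were called, where 37.4% of all genes were. Prdm9 and Prdm10 were higher in ANT (log2 fold changes −0.61 and −0.61, edgeR adjusted p 0.00385 and 0.000348), Prdm11 was higher in SAS (0.55, adjusted p 0.0123), and the other 4 did not pass the test. These 3 were not called against a fold change of 1.5, and leaving out ANT replicates 1 and 3 ended the call of Prdm11 (adjusted p 0.0512).

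Set per length, which allows levels of different genes to be compared, the balance of Bcl6 and Prdm1 differed between the clones. Bcl6 stood at 17.6 ± 1.05 CPM per kb of exon in SAS and 3.65 ± 0.161 in ANT, and Prdm1 at 0.178 ± 0.0701 CPM per kb in SAS and 1.88 ± 0.380 in ANT. The ratio of Bcl6 to Prdm1 was 143, 70.6, 145 and 83.0 in SAS replicates 1, 2, 3 and 6, against 2.32, 2.13, 1.53 and 1.98 in ANT replicates 1, 3, 4 and 5. Per length of the longest transcript in place of all exons, the ratios ran from 114 to 234 in SAS and from 2.47 to 3.74 in ANT, so the size of the ratio depends on the length used. Bcl6 was the more abundant of the pair in all 8 libraries with both lengths. On the log2 scale the ratio averaged 6.72 ± 0.54 in SAS and 0.98 ± 0.26 in ANT (SD, n = 4), a difference of 5.74 that does not depend on how libraries are scaled and that is given without a test. The SAS libraries with the higher ratios, replicates 1 and 3, were those with the fewest Prdm1 counts.

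**Figure D2:**
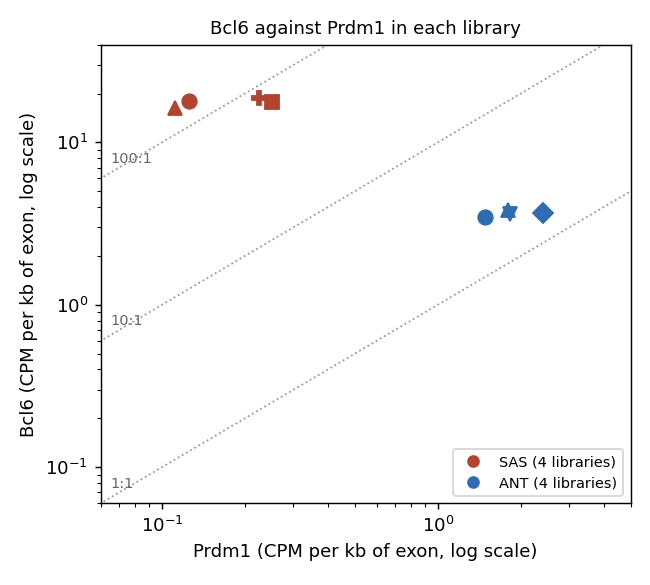
Bcl6 against Prdm1 in each of the 4 SAS and 4 ANT libraries, both in CPM per kb of exon on log axes, with symbols for the replicate number (circle 1, square 2, triangle 3, diamond 4, inverted triangle 5, plus 6) and dotted lines of equal ratio. SAS libraries lie at ratios of 70.6 to 145 and ANT libraries at 1.53 to 2.32.

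Pou2af1 (ENSMUSG00000032053.8, chromosome 9, 51213708 to 51240080, plus strand) had the largest fold change of the members. It was at 201, 172, 139.8 and 189 CPM in SAS replicates 1, 2, 3 and 6, against 11.2, 9.59, 9.30 and 8.93 CPM in ANT replicates 1, 3, 4 and 5. All SAS libraries lay above all ANT libraries, and replicate 3 was the lowest in SAS, as it was for Bcl6. The means were 176 ± 26.7 CPM across SAS libraries and 9.75 ± 0.988 CPM across ANT libraries, an 18.0-fold excess in SAS (log2 fold change 4.17, SE 0.15, edgeR adjusted p 3.14e-08, place 18 of 12619 by p-value). By its level per kb, Pou2af1 stood at percentile 95.8 of the tested genes in SAS and 39.5 in ANT.

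A transcript annotated within an intron of Pou2af1 on the same strand, Gm47828, held 60, 77, 67 and 49 counts in SAS replicates 1, 2, 3 and 6, against 5, 2, 3 and 3 counts in ANT replicates 1, 3, 4 and 5. Its log2 fold change of 4.14 (SE 0.35, edgeR adjusted p 9.77e-06) was close to that of Pou2af1, and the 2 share no exonic bases. Intron reads of Pou2af1 cannot be told from reads of Gm47828 in gene counts.

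Pou2af1 is best known from B cells, so B cell transcripts were set beside it. The 18 genes of a B cell list summed to 139 to 234 CPM in SAS libraries and 682 to 713 CPM in ANT libraries, most of it from Ighm, which was lower in SAS. Without Ighm the other 17 summed to 16.3 to 54.4 CPM in SAS and 24.7 to 45.7 CPM in ANT, and the ranges overlapped. Cd79a, a chain of the B cell receptor complex, was at 0.908 ± 0.249 CPM across SAS libraries and 0.807 ± 0.180 CPM across ANT libraries (log2 fold change 0.17, SE 0.31, edgeR adjusted p 0.704). A plasma cell list summed to 241 to 387 CPM in SAS libraries and 98.1 to 113 CPM in ANT libraries. The largest part of the SAS sum came from Irf4, at 214 ± 64.1 CPM, against 13.2 ± 2.86 CPM across ANT libraries. In this list 2 of 9 tested genes were higher in SAS, Irf4 and Xbp1, and 0 were higher in ANT. Thus 22.2% were called, against 37.4% of all genes. Jchain, a plasma cell gene, was at 5.87 ± 4.36 CPM across SAS libraries and 5.23 ± 2.35 CPM across ANT libraries (edgeR adjusted p 0.808). The part of B cells and plasma cells in the Pou2af1 level was not tested.

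POU2AF1 acts only with an octamer factor, and the 2 such factors of lymphocytes differed. Pou2f2, the gene of OCT2, was at 81.1, 96.7, 80.3 and 73.0 CPM in SAS replicates 1, 2, 3 and 6, against 5.83, 6.36, 10.02 and 6.79 CPM in ANT replicates 1, 3, 4 and 5. Every SAS library lay above every ANT library (log2 fold change 3.51, SE 0.18, edgeR adjusted p 4.77e-07). Pou2f1, the gene of the ubiquitous OCT1, was at 93.8 ± 9.09 CPM across SAS libraries and 98.4 ± 13.2 CPM across ANT libraries, a difference that failed the test (log2 fold change −0.07, SE 0.12, adjusted p 0.68). Pou2f3 had 0 counts in all libraries. In a list of octamer factors and genes reported as controlled by POU2AF1, SAS was higher in 5 of 8 tested genes and ANT in 2. Calls made up 87.5% of those tested, against 37.4% of all genes. The list holds Bcl6 and Prdm1 themselves, and the others called included Pou2f2, Btla and Il21 in SAS and Cd40lg in ANT.

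Maf (ENSMUSG00000055435.6, chromosome 8, 115682942 to 115707794, minus strand), the gene of c-MAF, was higher in SAS and varied more than Bcl6 and Pou2af1. It was at 20.3, 26.5, 32.03 and 13.6 CPM in SAS replicates 1, 2, 3 and 6, against 4.24, 4.74, 9.12 and 6.27 CPM in ANT replicates 1, 3, 4 and 5. The clones did not overlap, but the lowest SAS library, replicate 6, lay nearer to the highest ANT library, replicate 4, than to the highest SAS library. The means were 23.1 ± 7.97 CPM across SAS libraries and 6.09 ± 2.19 CPM across ANT libraries, a 3.79-fold excess in SAS (log2 fold change 1.92, SE 0.30, edgeR adjusted p 0.00068). The coefficients of variation, 34.5% in SAS and 36.0% in ANT, were far above the 3.80% and 7.63% of counting error. In ANT the libraries higher in Maf were replicates 4 and 5, the pair set apart on the second component. The log2 fold change was 2.34 without them and 1.58 without ANT replicates 1 and 3, and it passed the test in both cases.

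No other tested gene of the Maf family passed the test. The small Maf genes Maff, Mafg and Mafk, which lack an activation domain, did not pass (log2 fold changes −0.50, 0.13 and −0.18 with SE 0.59, 0.18 and 0.26). Nrl, a large Maf factor of the retina, held 0 counts in both clones. Macrophage and dendritic cell genes summed to 5.07 to 10.7 CPM over the 14 genes of a list in SAS libraries and 4.96 to 6.81 CPM in ANT libraries. Of genes reported as controlled by MAF, 9 of 14 were tested: 5 passed with SAS higher and 2 with ANT higher. Calls made up 77.8% of those tested, against 37.4% of all genes. The 5 were Cxcr5, Pdcd1, Icos, Tigit and Il21, and those higher in ANT were Cd40lg and Il6ra. All 7 also stand in the list of Tfh surface and secreted molecules. Cd40lg did not pass when tested for a change beyond 1.5-fold or at an adjusted p under 0.01. Il4 and Il10, cytokine genes that MAF can drive, held 1 and 17 counts in SAS and 0 and 1 in ANT. An antisense gene model, Gm15655, shares 440 exonic bases with Maf, and its reads cannot be told from those of Maf here.

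Ascl2 (ENSMUSG00000009248.6, chromosome 7, 142966829 to 142969264, minus strand) was close to the limit of detection. SAS replicates 1, 2, 3 and 6 held 2, 0, 3 and 1 counts, against 0, 0, 3 and 2 counts in ANT replicates 1, 3, 4 and 5. The libraries at 0 allow up to 0.103 to 0.110 CPM by a limit of 3 counts. The sums of 6 counts in SAS and 5 in ANT give a ratio of 1.12 with a 95% exact conditional interval of 0.284 to 4.62, which covers counting error only, so a difference within that range was not detectable at this depth. Cxcr5, the receptor that ASCL2 can induce, was at 88.7, 39.5, 44.9 and 64.6 CPM in SAS replicates 1, 2, 3 and 6, against 0.724, 0.515, 0.505 and 0.793 CPM in ANT replicates 1, 3, 4 and 5. Of a list of 10 genes reported as controlled by ASCL2, 9 were tested: 5 passed with SAS higher and 4 with ANT higher. Calls made up 100% of those tested, against 37.4% of all genes. Several of these genes, Cxcr5 among them, also stand in other lists here, so the shares of the lists do not count separate genes. Those higher in SAS, beside Cxcr5, included the IL-2 receptor genes Il2rb and Il2ra, with log2 fold changes of 6.49 and 3.18 (edgeR adjusted p 4.09e-08 and 1.45e-06). Those higher in ANT included Cxcr4, with −0.59 (adjusted p 0.0075, not called against a fold change of 1.5), and Selplg and Ccr7, with log2 fold changes of −1.39 and −1.20 (edgeR adjusted p 3.47e-05 and 0.000164). No other Ascl gene was high enough to be tested.

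**Figure D3:**
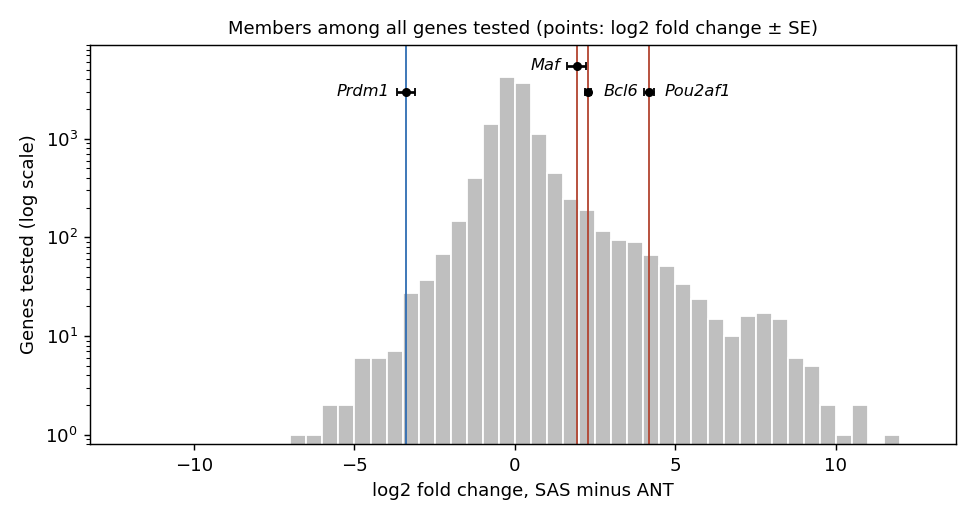
Number of tested genes (log vertical axis) by log2 fold change, SAS minus ANT, in bins of equal width, with the 4 tested members as lines and as points with their SE. Prdm1 at −3.40 lies far into the tail of genes lower in SAS, and Pou2af1 at 4.17 lies beyond Bcl6 at 2.27 and Maf at 1.92.

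Within a clone the order of the members by CPM per kb also differed. In SAS it was Pou2af1 at 68.9 ± 10.5, Bcl6 at 17.6 ± 1.05, Maf at 2.80 ± 0.967, Prdm1 at 0.178 ± 0.0701 and Ascl2 at 0.0303 ± 0.0271, and no neighbours in that order overlapped. In ANT it was Pou2af1 at 3.82 ± 0.388, Bcl6 at 3.65 ± 0.161, Prdm1 at 1.88 ± 0.380, Maf at 0.740 ± 0.266 and Ascl2 at 0.0273 ± 0.0330. There Pou2af1 and Bcl6 overlapped, with 3.50 to 4.38 against 3.45 to 3.85, and the other neighbours did not. With the longest annotated transcript as the length, a choice made after seeing the data, the top of the ANT order turned, with Bcl6 at 6.23 ± 0.274 above Pou2af1 at 3.83 ± 0.388 CPM per kb and no overlap, while the SAS order stayed as it was. Among all tested genes, Bcl6 stood at percentile 76.9 in SAS and 38.6 in ANT, Maf at 33.4 in SAS and 18.4 in ANT, and Prdm1 at 4.09 in SAS and 28.4 in ANT.

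Of the factors listed as inducers of Bcl6 or the Tfh fate, Egr3, Egr2 and Irf4 had the smallest p-values. In a list of 20 genes, all tested, 9 were higher in SAS, 1 was higher in ANT and 10 did not pass. The share called was 50%, against 37.4% of all genes. The median log2 fold change was 0.22, against −0.0032 over all genes tested. Egr2 and Egr3, zinc-finger factors induced by the receptor, had log2 fold changes of 3.82 and 4.73 (edgeR adjusted p 1.31e-07 and 6.98e-08). Irf4, which is needed for Tfh and for effector cells alike, was at 263, 119.7, 241 and 231 CPM in SAS replicates 1, 2, 3 and 6, against 10.3, 14.8, 16.4 and 11.4 CPM in ANT replicates 1, 3, 4 and 5. Tox2, which favours Tfh chromatin, was higher in SAS by 4.46 on the log2 scale. Id3, an inhibitor of E proteins, was also higher in SAS, with 105 ± 17.4 CPM across SAS libraries and 37.0 ± 7.35 CPM across ANT libraries. The list also holds genes of E proteins, which ID3 inhibits. The count of 9 therefore includes a gene whose rise need not favour the Tfh fate.

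Tcf7, the gene of TCF1, which binds the Bcl6 locus early in Tfh differentiation, was at 1870 ± 283 CPM across SAS libraries and 1804 ± 498 CPM across ANT libraries. Its log2 fold change of 0.05 had an SE of 0.20 (edgeR adjusted p 0.862). Lef1, the relative of TCF1, had −0.01 with an SE of 0.15, Batf 0.23 with an SE of 0.15 and Stat3 −0.0022 with an SE of 0.16, and none of these 3 passed the test. Without ANT replicates 4 and 5, Tcf7 and Stat3 passed as higher in SAS, at 0.42 and 0.31 (edgeR adjusted p 0.0487 and 0.0280). Tcf7 also passed as higher in SAS with a replicate block, at 0.35 (edgeR adjusted p 0.0338).

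Among genes listed as opponents of the Tfh fate, 44.4% passed the test, against 37.4% of all genes, and all those called were higher in SAS. Of all genes tested, 19.8% were higher in SAS and 17.7% were higher in ANT. Of 18 listed and tested, 8 were higher in SAS, 0 were higher in ANT and 10 did not pass, with a median log2 fold change of 0.39. The members called included the receptor subunits of IL-2, a cytokine whose STAT5 signal represses Bcl6. Il2ra and Il2rb had log2 fold changes of 3.18 and 6.49 (edgeR adjusted p 1.45e-06 and 4.09e-08), and Stat5a and Stat5b 1.07 and 0.47 (adjusted p 7.6e-06 and 0.00702), and Stat5b did not pass when tested for a change beyond 1.5-fold. For Tbx21, the Th1 factor, the SAS libraries held 969 counts together and the ANT libraries 4, with a log2 fold change of 7.67 that was 8.99 without ANT replicate 3. The repressor Bach2, the quiescence factors Foxo1 and Klf2, and Id2 did not pass, with log2 fold changes of 0.53, −0.22, −0.87 and 0.32 and SE of 0.21, 0.17, 0.51 and 0.13. Bach2 was called as higher in SAS by DESeq2 (adjusted p 0.0406), without ANT replicate 5 (0.0158), without ANT replicates 4 and 5 (0.00288), without SAS replicate 1 (0.0446), with library totals only (0.0333) and with a replicate block (2.29e-08). Id2 was called without SAS replicate 6 (0.0377), with library totals only (0.0267) and with a replicate block (0.0424). Klf2 had −0.06 without ANT replicates 4 and 5.

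Genes reported as repressed by BCL6 were split. Of 23 listed, 20 were tested, 5 of them passing as higher in SAS and 8 as higher in ANT, with 7 not called. The share called was 65%, against 37.4% of all genes, and the median log2 fold change was −0.50. Those higher in ANT, beside Prdm1 itself, included genes of homing and exit from lymph nodes and of survival, with log2 fold changes of −1.55 for S1pr1, −1.39 for Selplg, −1.20 for Ccr7, −1.25 for Itgb7 and −2.65 for Il7r, and the lineage factor Rora with −0.51. The fold of Il7r changed with the ANT libraries, to −1.84 without replicates 4 and 5, and Rora was not called without replicates 1 and 3 (adjusted p 0.0676), against a fold change of 1.5 or at an adjusted p under 0.01. Selplg encodes the P-selectin ligand that Tfh cells lose. It was at 226, 194, 195 and 197 CPM in SAS replicates 1, 2, 3 and 6, against 606, 625, 465 and 428 CPM in ANT replicates 1, 3, 4 and 5. Those higher in SAS included Tbx21, Runx2 (log2 fold change 3.04) and Cish, a target of STAT5 (2.07, and 2.98 without ANT replicates 4 and 5). Gpr183, the receptor for oxysterols that keeps cells at the follicle border, did not pass (log2 fold change −0.13, SE 0.20, adjusted p 0.642).

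**Figure D4:**
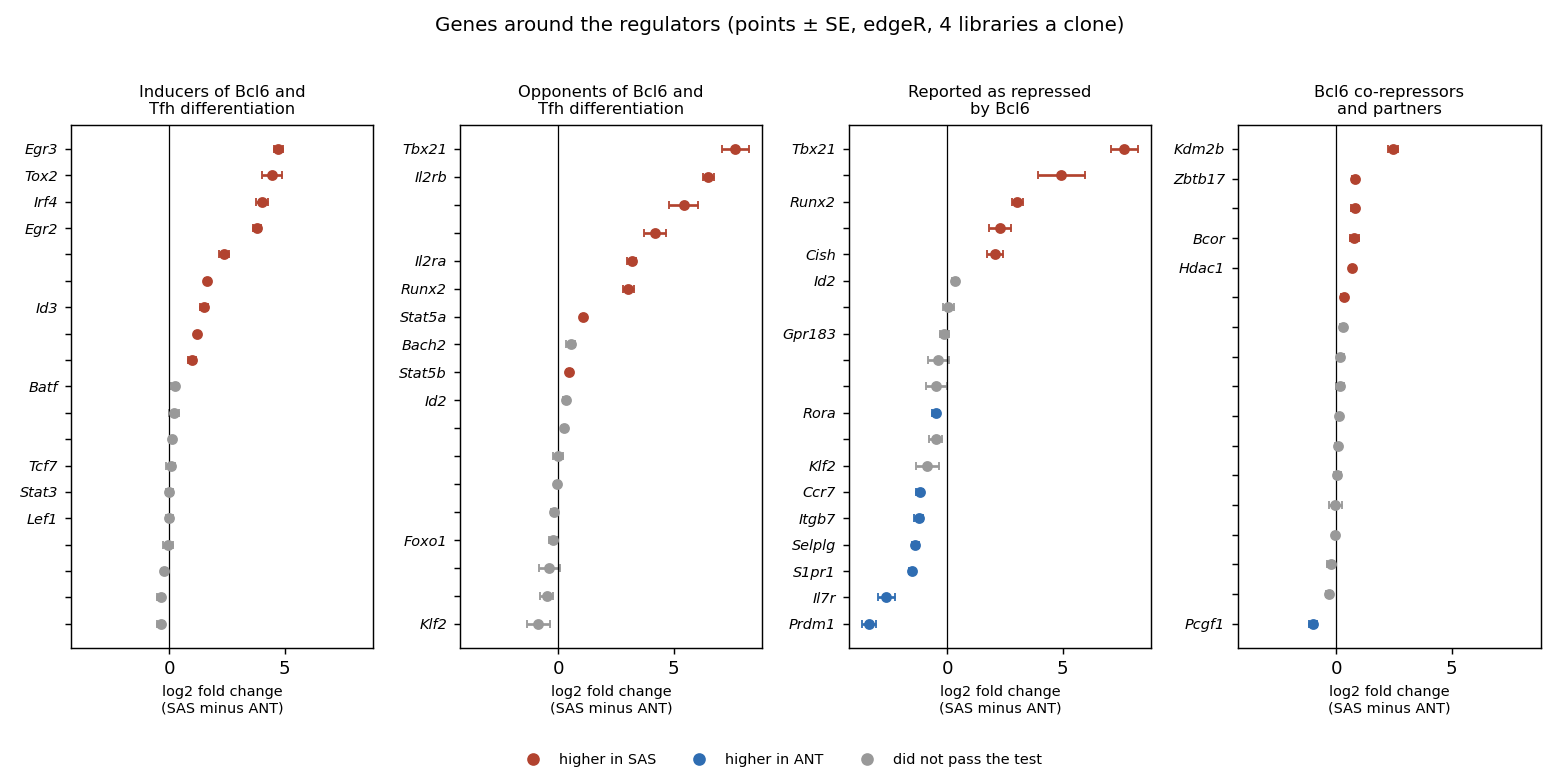
log2 fold change, SAS minus ANT, with SE, for tested genes of 4 lists, with names where the text gives the gene: inducers of Bcl6 and Tfh differentiation, their opponents, genes reported as repressed by BCL6, and BCL6 co-repressors and partners. Colour gives the edgeR call. The panels hold 9, 8, 5 and 6 genes higher in SAS from left to right.

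The co-repressors and partners of BCL6 passed the test about as often as genes in general. Of 20 genes, 18 were tested, 6 were higher in SAS, 1 was higher in ANT and 11 did not pass, so that 38.9% were called, against 37.4% of all genes. Kdm2b, a subunit of the Polycomb complex that BCOR joins, had the largest log2 fold change of 2.47 (SE 0.22, edgeR adjusted p 1.53e-05). Hdac1, Zbtb17 and Bcor were higher in SAS by 0.66, 0.79 and 0.77 on the log2 scale, and none of these 3 was called against a fold change of 1.5. Leaving out ANT replicates 1 and 3 ended the call of Bcor (adjusted p 0.0546). Pcgf1, the Polycomb partner of BCOR, was higher in ANT (−1.01, adjusted p 0.00172).

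Among the surface and secreted molecules of Tfh cells, 18 of 20 listed genes were tested. Of these, 13 were higher in SAS, 3 were higher in ANT and 2 did not pass. The share called was 88.9%, against 37.4% of all genes, and the median log2 fold change was 1.31. Cd200, an inhibitory ligand carried by Tfh cells, was at 145 ± 10.4 CPM across SAS libraries and 12.8 ± 3.06 CPM across ANT libraries (log2 fold change 3.49, edgeR adjusted p 3.54e-07). Il21, whose transcription MAF and BCL6 favour in Tfh cells, held 34, 19, 23 and 27 counts in SAS replicates 1, 2, 3 and 6, against 4, 1, 0 and 0 counts in ANT replicates 1, 3, 4 and 5. Its log2 fold change was 4.13 and depended on ANT replicate 1, without which it was 5.70. Without ANT replicates 1 and 3 the ANT libraries hold no count of it, and no fold is given. Of genes reported as controlled by Blimp1, 16 of 21 were tested, with 10 higher in SAS and 3 higher in ANT. Calls made up 81.25% of those tested, against 37.4% of all genes. Those higher in SAS included Lag3, Pdcd1 and Bcl6, and those higher in ANT included Ccr7 and Il7r.

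Transcripts of regulatory T cells, which can carry Maf, Prdm1, Icos, Irf4 and Il2ra, also moved with the clones. The 12 genes of a regulatory T cell list summed to 1117 to 1363 CPM in SAS libraries and 65.4 to 99.1 CPM in ANT libraries. SAS was higher in 9 of 11 tested and ANT in 0, so that 81.8% were called, against 37.4% of all genes. Foxp3, which defines these cells, was at 1.45 ± 0.716 CPM across SAS libraries and 0.585 ± 0.106 CPM across ANT libraries (log2 fold change 1.31, edgeR adjusted p 0.0165), and most of the sum came from Ikzf2, the gene of Helios. The 12 genes of a CD8 and NK cell list summed to 206 to 252 CPM in SAS and 70.0 to 118 CPM in ANT. But its genes went both ways, with SAS higher in 5 of 10 tested and ANT in 4, so that 90% were called. The part of such cells in the members' results was not tested.

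Likeness of pattern was measured as the root mean square difference between log2 CPM profiles over the 8 libraries, each centred on its own mean, among 8389 protein-coding genes with at least 10 CPM in the higher clone, leaving out predicted genes named Gm with a number. The clone difference makes up most of each profile, so near profiles mean a similar fold change first. Nearest to Bcl6 were Gfi1, a zinc-finger repressor of lymphocytes (difference 0.09), Sall2 (0.12) and Atat1 (0.14). Gfi1 was at 86.8 ± 3.26 CPM across SAS libraries and 18.8 ± 1.44 CPM across ANT libraries. Nearest to Pou2af1 were Myb, a factor of haematopoietic progenitors and T cells (0.16), Egr2 (0.27) and Hip1r (0.30), and Myb was at 784 ± 24.5 CPM across SAS libraries and 46.9 ± 6.44 CPM across ANT libraries. Nearest to Prdm1 were Socs3, a feedback inhibitor of IL-6 signalling (0.21), Adamts14 (0.33) and Sorcs2 (0.34), and Socs3 was at 17.2 ± 6.21 CPM across SAS libraries and 168 ± 30.6 CPM across ANT libraries. Nearest to Maf were Abhd17c (0.27), Tns1 (0.30) and Bcl2l11, the gene of the death factor BIM (0.31).

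**Figure D5:**
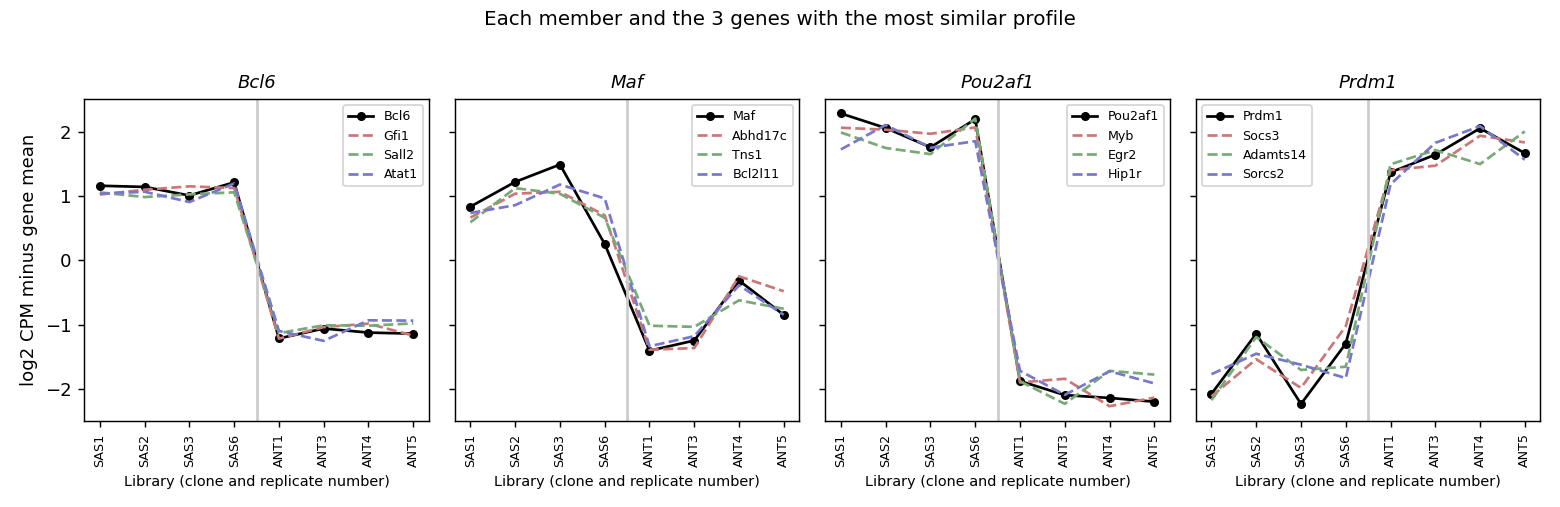
Profiles of the 4 tested members (solid) and of the 3 nearest genes to each (dashed) as log2 CPM minus the gene's mean over the 8 libraries, with the 4 SAS libraries left of the grey line and the 4 ANT libraries right of it. Root mean square differences run from 0.09 for Gfi1 and Bcl6 to 0.34 for Sorcs2 and Prdm1.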

How the data were processed

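RNA of sorted CD4+ T cells was made into strand-specific TruSeq mRNA libraries, per the labels' protocols. The deposited file holds raw gene counts, as the authors made them, for 8 libraries (27600959 to 31810799 counts each), and STAR, featureCounts and mm10 are named in the submitters' processing notes. Versions, annotation release, strand setting and multi-mapped reads are not given in the sources used here. Of 39056 gene IDs, 38872 matched GENCODE M21 (GRCm38) without the version suffix.

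All 8 libraries were fitted with edgeR 4.0.16 in R 4.3.3 (default low-count filter, TMM scaling, robust quasi-likelihood test of SAS against ANT, no covariates), with Benjamini-Hochberg adjustment over 12619 genes. SE is the absolute log2 fold change over the square root of F. CPM per kb uses the exon union length. Profiles used a prior count of 2. On counts simulated for this comparison over 12619 genes with 200 changed, recovery was 34% for a fold of 1.5, 60% for 2, 98% for 4 and 94% for 8. Folds of 1.5 and 4 were all increases in SAS and folds of 2 and 8 all decreases, so recovery by fold is mixed with direction. False calls made up 4.67%. Far fewer genes were changed there than the 37.4% called in the data, so this share may not carry over.

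The members and the lists, written from general knowledge, were chosen with earlier results of these data known. The 9 lists other than those of cell type markers hold 157 entries from 114 different genes. Of these genes, 34 stand in more than 1 list, so the shares called are not independent of each other. Genes named from a list are those with the lowest p-values, 3 in the commoner direction and 2 in the rarer, plus fixed partners, family members and the leading and defining genes of each marker list. Others, such as full sets of called genes, Gm47828, Itgb7 and Cish, were chosen after their values were seen. DESeq2 1.42.0, limma-voom (limma 3.58.1), other scalings and filters, and fits without libraries were the alternatives. Some genes of the lists are not reported here.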

Additional observations from a re-analysis of the deposited data

How the results depend on the processing

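Each of Bcl6, Prdm1, Maf and Pou2af1 kept its direction and its call in all 20 alternative fits. Leaving out 1 library gave log2 fold changes of 2.24 to 2.31 for Bcl6, −3.61 to −3.23 for Prdm1, 1.72 to 2.17 for Maf and 4.10 to 4.27 for Pou2af1. The number of genes called ran from 3964 to 4700 without 1 library. It was 1836 against a fold change of 1.5 and 3044 at an adjusted p under 0.01, where the stricter threshold is the cause. The log2 difference in the Bcl6 to Prdm1 ratio was 5.58 to 5.93 without 1 library. Ascl2 could be fitted only with no low-count filter (log2 fold change 0.12, edgeR adjusted p 0.964).

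With a replicate block the clone difference comes from replicates 1 and 3 alone, whose deviations correlated at 0.29 and −0.12 over genes. With so few shared numbers, these correlations cannot show whether the numbers pair the samples. The fit with the block called 5798 genes, with 2.23 for Bcl6, −3.78 for Prdm1, 2.51 for Maf and 4.02 for Pou2af1.

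Genes near 0 that did not pass changed sign, and the cause was not tested. With library totals only, Lef1 was at 0.082, Stat3 at 0.10 and Pou2f1 at 0.027. With the replicate block, Lef1 was at 0.18, Stat3 at 0.32, Pou2f1 at 0.062 and Gpr183 at 0.017. Without ANT replicates 4 and 5, Lef1 was at 0.19, Stat3 at 0.31 and Pou2f1 at 0.042, and without ANT replicates 1 and 3, Tcf7 was at −0.26. Stat3 was at 0.010 with at least 1 CPM in 4 libraries and 0.028 with limma-voom. Without 1 library the ranges were −0.068 to 0.17 for Tcf7, −0.11 to 0.071 for Lef1, −0.10 to 0.11 for Stat3, −0.13 to 0.015 for Pou2f1 and −0.22 to 0.061 for Gpr183.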

Other observations

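Ighm, the heavy chain constant gene that most B cell counts came from, was at 150.04 ± 27.1 CPM across SAS libraries and 665 ± 21.4 CPM across ANT libraries (log2 fold change −2.15, SE 0.14, edgeR adjusted p 1.68e-06). Bank1 and Btk, also from the B cell list, moved in opposite directions, at 0.289 ± 0.190 CPM across SAS libraries and 2.79 ± 0.659 CPM across ANT libraries for Bank1 and at 2.60 ± 0.782 CPM across SAS libraries and 0.346 ± 0.158 CPM across ANT libraries for Btk.

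Some genes tied to the 5 regulators were too low to be tested. Il2, which Blimp1 is reported to repress, held 118 counts in SAS and 3 in ANT, a ratio of 36.6 with a 95% exact conditional interval of 12.2 to 179.9 for counting error. Ascl3, a relative of Ascl2, held 7 counts in SAS and 42 in ANT. These genes were chosen after their values were seen.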
